A study of Solanum lycopersicum and Solanum pennellii and Solanum pimpinellifolium with 52 samples.

Results

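Roots of cultivated tomato, Solanum lycopersicum, and of its wild relative S. pennellii were set against 5 other tissues of the same species. The root libraries were the 4 whose labels name root as the tissue, 2 from each species, out of 52 libraries in the series. They belong to a factorial of 24 libraries with 2 species, 6 tissues and 2 light treatments, and the other 20 libraries hold leaf, stem, seedling, inflorescence and vegetative meristem, 4 of each. The remaining 28 libraries are seedlings from a separate experiment under standard light, and they entered no test here. They are 7 each of S. habrochaites (LA1777), S. pimpinellifolium (LA1589) and the strains LA716 and LA3475, and their RNA was prepared with a Qiagen kit.

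S. pennellii was strain LA716, and S. lycopersicum was strain LA3475, written as M82 in the library titles. Both were kept at 22 °C in a growth chamber. Each tissue was taken under simulated shade, where red light was 0.48 times the far-red light, and under simulated sun, where it was 3.1 times, and light averaged 95 µE in both. Trizol was used to extract this RNA, and an Illumina mRNA kit to make the libraries. Each combination of species, tissue and light had 1 library. The labels do not say whether libraries came from separate plants or from pools. In the fitted model the shade and sun libraries of a species and tissue stood in for replicates, after the species' average light effect. A p-value from it reflects the variation left between them. This holds light responses that differ between tissues as well as variation from library to library, which may be technical. The labels also do not say whether the seedling libraries included roots.

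A root anchors the plant, takes up water and mineral ions, and carries no green tissue in soil. Its transcriptome is known for membrane transporters, enzymes that build and modify cell walls, and proteins of the endodermis and root hairs, while genes of the light reactions and of carbon fixation are mostly quiet. The deposited table lists gene models by ID without names. Of these IDs, 0 were found in the RefSeq gene table used here, so genes are given by ID and no function is attached to them. For the same reason the label root could not be checked against named root genes. Values are RPKM, a read count scaled to both gene length and library depth. The 4 root libraries held 1796972 to 3941839 reads, and the 24 libraries of the factorial held 1796972 to 5556065. The shallowest was S. lycopersicum root shade.

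The root libraries stood together and apart from all others. In a principal component analysis of log2(RPKM + 1), the first component carried 30.4% of the variance, with the 4 root libraries between 159 and 172 and the other 20 between −99.4 and 43.3. The 4 stem libraries came nearest, at 10.8 to 43.3. Across genes, the shade and sun root libraries correlated with Pearson's r of 0.961 in S. pennellii and 0.936 in S. lycopersicum, and root libraries of different species with r of 0.879 to 0.887. The mean r with the root libraries was 0.751 to 0.781 for stem, 0.747 to 0.770 for seedling and 0.658 to 0.703 for vegetative meristem. These correlations are across genes, which are not independent replicates.

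**Figure D1:**
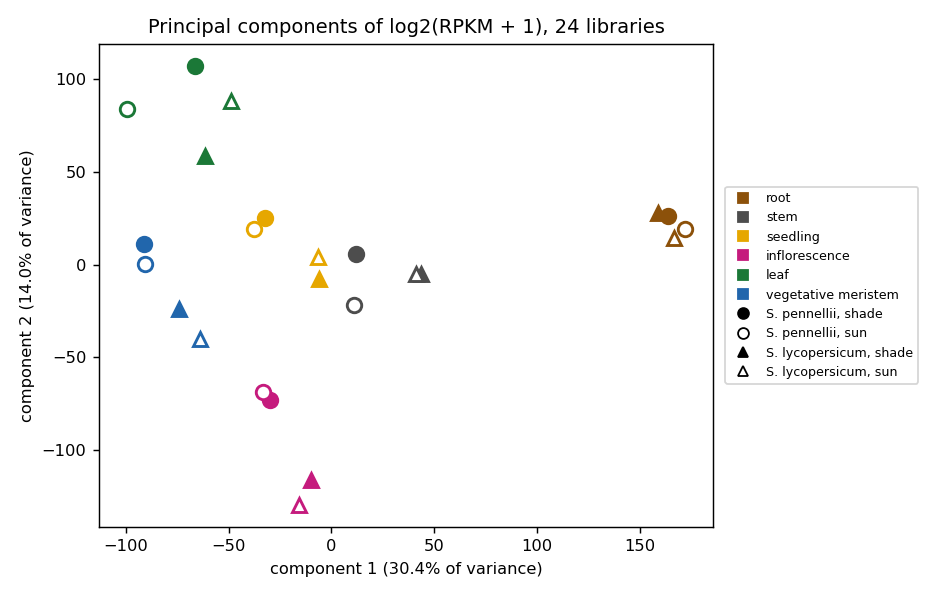
First (x) and second (y) principal component of log2(RPKM + 1) in the 24 libraries of the factorial, with the percent of variance on each axis; colours are tissues, circles S. pennellii, triangles S. lycopersicum, filled symbols shade and open symbols sun. The 4 root libraries lie between 159 and 172 on the first component, and the other 20 reach at most 43.3.

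More genes were detected in root, by a fixed RPKM cutoff, than in the mean of the other libraries. A root library had 18041 to 19025 genes with an RPKM of at least 1, a mean of 18386 ± 438 (SD, n = 4), against 17519 ± 636 (SD, n = 20) in the others (two-sided exact permutation test, p = 0.0152). The 100 highest genes held 22.8% ± 3.25 of the summed RPKM in root (SD, n = 4) and 35.3% ± 11.4 in the others (SD, n = 20; two-sided exact permutation test, p = 0.0250). The ranges overlapped in both measures: inflorescence libraries had 17136 to 18707 such genes and a share of 17.1% to 27.3% in the 100 highest. The measures are linked, because RPKM is scaled to library depth. Where the highest genes take more of a library, other genes have lower RPKM and fewer reach the cutoff. The count was not repeated under another scaling, so whether it reflects more than this was not tested. The permutations moved all 24 libraries freely, without regard to species, light or tissue. Root is 1 of 6 tissues, and libraries of 1 tissue are not independent of each other, so these p-values overstate the evidence. Both differences were also sensitive to single libraries. Without the S. lycopersicum root sun library, the exact permutation p for detected genes was 0.0858. For the share of the 100 highest genes it was 0.0734 without that library, 0.0531 without S. pennellii root shade and 0.0757 without S. pennellii root sun.

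Against the mean of the 5 other tissues, with both species weighted equally, 6685 of 22512 genes tested were called, which is 29.7%. Calls required an adjusted p under 0.05 in limma (Benjamini-Hochberg) and a log2 difference of 1 or more in either direction. Of these, 3982 (17.7% of genes tested) were higher in root and 2703 (12%) were lower. The difference was 4 or more on the log2 scale for 340 of the higher and 182 of the lower genes. For 1338 of the higher genes and 490 of the lower, the 4 root libraries did not overlap the other 20; over all genes tested, called or not, 6.17% lay wholly higher in root and 2.18% wholly lower.

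The balance between higher and lower calls depended on the scaling of the libraries. On RPKM as deposited, the median over all genes tested was 0.24 higher in root on the log2 scale, and 59.6% of calls were higher. With median-ratio scaling that median was 0.016 and 47.3% of calls were higher, 2914 against 3245 lower. With quantile normalization it was 0.013 and 47.4%, 3017 against 3342. A core of 2833 higher and 2700 lower genes was called in the same direction under all 3 scalings. No gene called on the deposited values was called in the opposite direction under another scaling. The median moved by far less than a reversed call would need, so the absence of reversals carries no weight. Both alternative scalings lowered root relative to the other tissues, which favours lower calls. That nearly all lower calls were kept therefore carries little weight as well.

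The 2 higher genes with the largest difference were far higher in root than in any other of these 24 libraries, with a low level in seedlings. Solyc04g014320.1.1, on chromosome 4 by its ID, was at 3065 and 3292 RPKM in S. pennellii root shade and sun, and at 1852 and 1282 RPKM in S. lycopersicum root shade and sun. In the other 20 libraries it ran from 0 to 102 RPKM with a median of 1.17, and the 4 seedling libraries, at 18.7 to 102 RPKM, were the highest of these. Every root library lay above every other library, which was a condition for naming a gene. Mean RPKM was 203-fold higher in root, and the log2 difference was 9.33 ± 0.55 (SE; adjusted p = 1.9e-09).

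Solyc11g011330.1.1, on chromosome 11, was at 2297 and 2471 RPKM in S. pennellii root shade and sun and at 1555 and 1641 RPKM in S. lycopersicum. The other libraries ran from 0 to 116 RPKM with a median of 1.20, with seedlings at 30.8 to 116 RPKM and the vegetative meristem at no more than 0.347 RPKM. Again no other library reached a root library, by the same condition. The log2 difference was 9.04 ± 0.28 (SE; adjusted p = 5.2e-12), and mean RPKM was 141-fold higher. In the 28 libraries of the separate seedling experiment, Solyc11g011330.1.1 stayed at 0.533 to 6.44 RPKM in the 3 species other than S. pennellii and was at 7.01 to 64.0 RPKM in S. pennellii. Solyc04g014320.1.1 was at 0 in all 7 S. lycopersicum libraries of that experiment and reached 24.9 RPKM in S. pennellii.

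The 2 lower genes with the largest difference were abundant in leaf, vegetative meristem and seedling and nearly absent from root. Solyc02g086820.2.1, on chromosome 2, was at 4.13 and 5.69 RPKM in S. pennellii root shade and sun, and at 0 and 3.15 RPKM in S. lycopersicum. It was at 2489 to 6785 RPKM in leaf, 3818 to 6313 RPKM in vegetative meristem, 1067 to 5651 RPKM in seedling, 56.0 to 859 RPKM in inflorescence and 26.4 to 92.1 RPKM in stem. Root was below all of them, again by that condition, and stem was the next lowest. Its mean RPKM was 795-fold lower in root, with a log2 difference of −7.96 ± 0.34 (SE; adjusted p = 6.0e-11).

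Solyc06g069730.2.1, on chromosome 6, was at 0 in both shade root libraries and at 2.81 and 2.02 RPKM in the sun root libraries of S. pennellii and S. lycopersicum. The other libraries ran from 58.8 to 2756 RPKM with a median of 499. The log2 difference was −7.95 ± 0.28 (SE; adjusted p = 1.4e-11). Both genes were high in the separate seedling experiment, where Solyc02g086820.2.1 was at 3057 to 13029 RPKM and Solyc06g069730.2.1 at 1172 to 3548 RPKM over the 28 libraries.

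**Figure D2:**
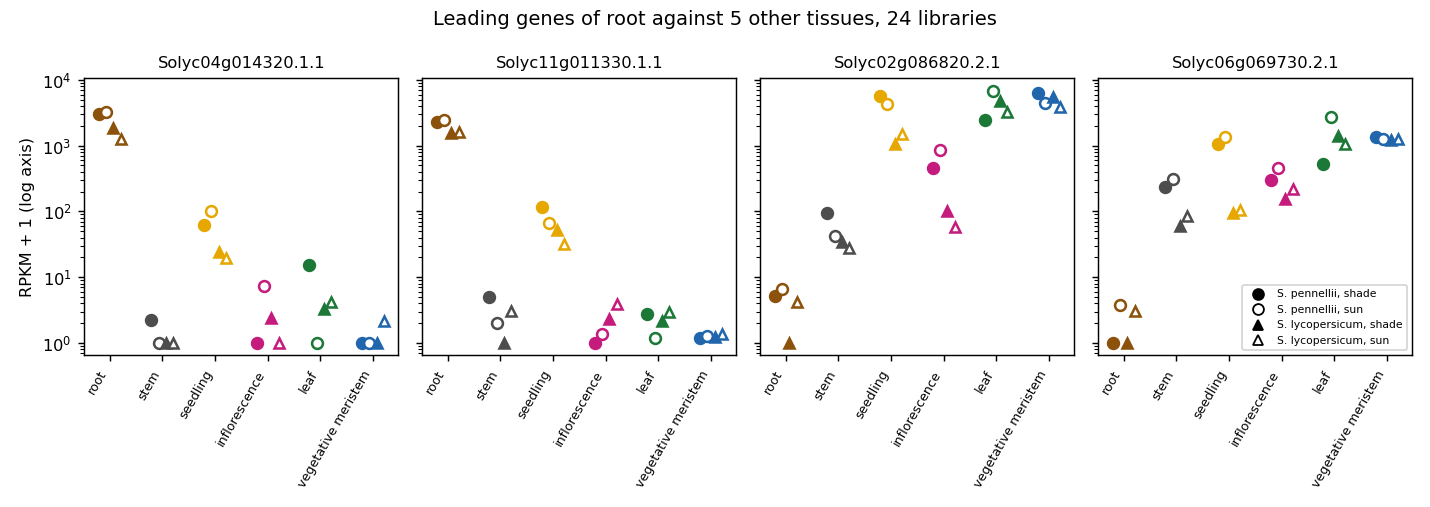
RPKM + 1 on a log axis (y) by tissue (x) for the 2 higher and 2 lower genes with the largest difference, 1 point per library; colours are tissues, circles S. pennellii, triangles S. lycopersicum, filled symbols shade and open symbols sun. In each panel the 4 root points do not overlap the other 20, which was a condition for choosing the genes.

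Few genes had 0 reads in one group and reads throughout the other. Among genes tested, 15 had 3 or more reads in each root library and 0 in all 20 others, with a median RPKM in root of 7.52. The highest of them, chosen after its values were seen, was Solyc10g074840.1.1, at 280 and 244 RPKM in S. pennellii root shade and sun and at 32.1 and 43.8 RPKM in S. lycopersicum. Against a floor of 3 reads over the 20 other libraries it was at least 744-fold higher in root. In the other direction, 7 genes had 0 reads in all 4 root libraries and 3 or more in each of the 20 others, and 134 genes had 0 reads in root and 3 or more in at least 10 of the 20. The highest gene in both of those classes was Solyc06g069790.2.1, with 3755 reads and 2.94 to 523 RPKM outside root; its mean was at least 218-fold lower in root against a floor of 3 reads over the 4 root libraries. These floors cover counting error only.

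Chosen after its values were seen, Solyc06g061200.1.1 was the highest gene in 3 of the 4 root libraries, at 10836 RPKM in S. pennellii sun and at 64991 and 20850 RPKM in S. lycopersicum shade and sun; it was at 6092 RPKM in S. pennellii shade. It was at 6307 to 48872 RPKM in stem, so root and stem overlapped, and it was the highest gene in 2 of the 4 stem libraries as well. It was at no more than 4072 RPKM in the other 4 tissues (log2 difference from the mean of all 5 tissues 3.27 ± 0.44 SE, adjusted p = 1.6e-05). Solyc02g085950.2.1 was the highest gene in 15 of the 20 other libraries, none of which was a stem library, and reached 90168 RPKM, while the 4 root libraries had 101 to 428 RPKM.

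The called genes made up very different shares of the libraries. The 3982 higher genes took 31.7% to 36.8% of the reads of a root library and 5.16% to 20.5% of any other, with stem at 15.01% to 20.5% and leaf at 5.16% to 8.79%. The 2703 lower genes took 2.92% to 4.25% of root reads and 14.4% to 59.99% elsewhere. These shares describe the libraries that chose the genes and carry no test. In the 28 seedling libraries of the separate experiment, which did not choose them, the higher genes took 8.002% to 10.9% of reads and the lower genes 40.8% to 49.5%. In bulk tissue, fewer cells of a type and less RNA per cell cannot be told apart.

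**Figure D3:**
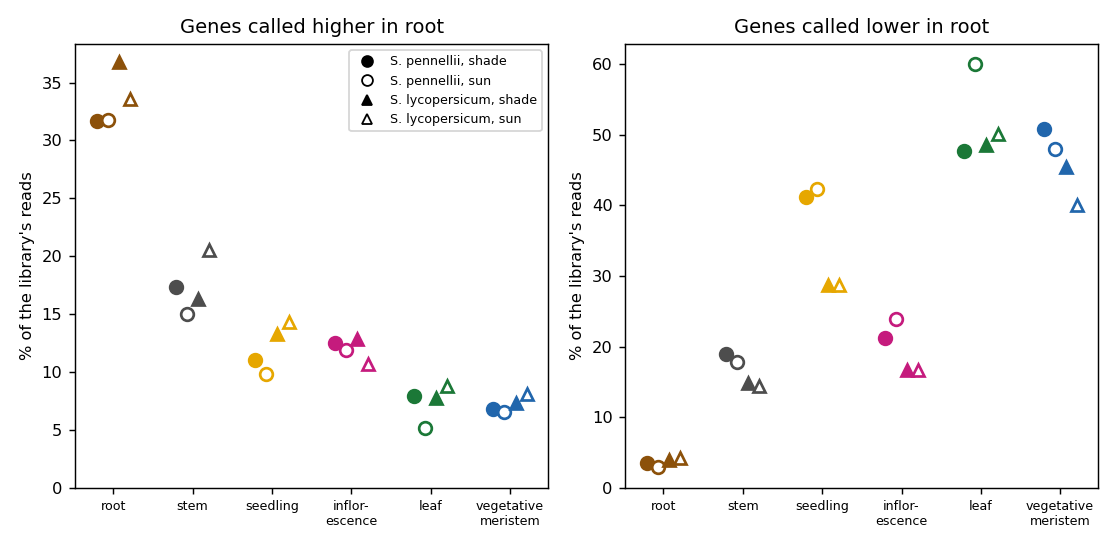
Percent of each library's reads (y) that fell on the 3982 genes called higher in root (left) and on the 2703 called lower (right), by tissue (x), 1 point per library; colours are tissues, circles S. pennellii, triangles S. lycopersicum, filled symbols shade and open symbols sun. Root libraries hold 31.7% to 36.8% on the left and 2.92% to 4.25% on the right, and stem is the nearest tissue in both panels.

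Stem and seedling came closest to root for the genes that were higher there. The next highest tissue was seedling for 1301 of the 3982 higher genes (32.7%) and stem for 1215 (30.5%), and it was vegetative meristem for 176 (4.42%). Over all genes tested, inflorescence was the highest of the 5 other tissues most often, for 37.8%, with stem at 24.1% and seedling at 14.2%. Of the 2703 lower genes, 1554 (57.5%) had their lowest other level in stem, against 20.9% of all genes tested; over all genes tested leaf was the lowest most often, for 41.9%. The median of the lower genes on the log2(RPKM + 1) scale was 1.98 in root, 3.35 in stem and 4.77 in vegetative meristem.

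The same comparison was made within each species. In S. pennellii, 7458 genes were called (33.1%), 4786 higher (21.3%) and 2672 lower (11.9%) in root. In S. lycopersicum, 5878 were called (26.1%), 3383 higher (15%) and 2495 lower (11.1%). This split rested in part on single root libraries: without S. lycopersicum root shade 3641 were higher and 1626 lower, and without S. lycopersicum root sun 2755 and 2763. Each difference used libraries of its own species, but both came from 1 fit in which all 24 libraries share the estimate of spread. The 2 comparisons are therefore not independent. They shared 2413 higher genes, which is 50.4% of the S. pennellii list and 71.3% of the S. lycopersicum list, and 1705 lower genes, 63.8% and 68.3% of the lists. Across genes the log2 differences of the species correlated with r of 0.802 and Spearman's rho of 0.718. The share of calls that were higher was 64.2% in S. pennellii and 57.6% in S. lycopersicum on the deposited values. It was 48.2% and 50.1% with median-ratio scaling, and 49.6% and 48.0% with quantile normalization. With median-ratio scaling 1880 higher genes were shared, 61.3% and 66.2% of the lists.

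Among genes with a large difference in S. pennellii, Solyc03g091000.1.1 was at 653 and 846 RPKM in S. pennellii root shade and sun and at 202 and 713 RPKM in S. lycopersicum, and no other library exceeded 12.9 RPKM. Solyc08g068130.1.1 was at 2148 RPKM in both S. pennellii root libraries but at 37.8 and 17.8 RPKM in S. lycopersicum root shade and sun. It was raised in root in both species, by 8.77 ± 0.55 and by 3.18 ± 0.55 on the log2 scale (SE), and these differed (adjusted p = 5.6e-04). Solyc07g041720.1.1 was lower, at 3.13 to 3.50 RPKM in the 4 root libraries against 195 to 4697 RPKM in the other S. pennellii libraries. Solyc02g085950.2.1, described above as the highest gene in 15 of the other libraries, was 289-fold lower in S. pennellii root.

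In S. lycopersicum, Solyc03g096420.1.1 was at 1023 and 511 RPKM in root shade and sun, against at most 17.4 RPKM in the other 10 libraries of the species, and at 137 and 331 RPKM in S. pennellii root shade and sun. Solyc12g098800.1.1 was at 612 and 217 RPKM in S. lycopersicum root shade and sun, with a single read in those 10 libraries. Of the lower genes, Solyc02g091920.2.1 had 0 reads in S. lycopersicum root and 61.9 to 444 RPKM elsewhere in the species, at least 471-fold lower against a floor of 3 reads over the 2 root libraries. Solyc09g018010.2.1 was at 0 and 2.35 RPKM in S. lycopersicum root and at 131 to 671 RPKM in its other tissues.

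The difference between root and the other tissues itself differed between species for 1398 genes (6.21%; limma contrast of the 2 species' differences). It was larger in S. pennellii, on the signed log2 scale, for 681 (3.03%) and larger in S. lycopersicum for 717 (3.18%). With median-ratio scaling these were 528 and 896, with quantile normalization 632 and 887, and with voom on whole reads 607 and 531. Of the 1398 genes, 310 were called higher in root in S. pennellii and not called in S. lycopersicum, and 245 were called higher in S. lycopersicum and not called in S. pennellii. Calls in opposite directions were made for 20 genes higher in S. pennellii root and 14 higher in S. lycopersicum root. The count rested in part on single root libraries: it was 618 (279 larger in S. pennellii and 339 in S. lycopersicum) without S. pennellii root sun and 857 (342 and 515) without S. pennellii root shade. The balance between species turned with them as well, to 1115 larger in S. pennellii and 548 in S. lycopersicum without S. lycopersicum root sun and to 321 and 744 without S. lycopersicum root shade.

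A gene can be low in one species through its expression or because reads that differ from the reference are counted less well, and which applies was not tested. The species with the smaller absolute difference had a mean RPKM under 1 for 31.3% of the 681 genes and 37.5% of the 717. Over all genes tested, that share was 17.7%. That species is not always the one with the smaller signed difference, by which the 681 and 717 were split.

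Solyc02g067190.2.1 was a gene of S. pennellii root, at 77.3 and 74.9 RPKM in shade and sun, and at 0 and 0.478 RPKM in S. lycopersicum root. It had 1 read in the other 10 S. lycopersicum libraries, so it was near 0 in every tissue of that species, and it reached 9.39 RPKM in S. pennellii outside root. The log2 root difference was 5.69 ± 0.33 in S. pennellii and 0.23 ± 0.33 in S. lycopersicum (SE; interaction adjusted p = 9.1e-06).

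Solyc02g065240.2.1 moved in opposite directions in the roots of the 2 species. It was at 37.1 and 46.8 RPKM in S. pennellii root shade and sun and at 0 and 0.638 RPKM in S. lycopersicum root, while the other tissues had medians of 14.2 RPKM in S. pennellii and 14.6 RPKM in S. lycopersicum. It rose by 2.11 ± 0.60 on the log2 scale in S. pennellii root (SE; adjusted p = 0.0097) and fell by 3.27 ± 0.60 in S. lycopersicum root (SE; adjusted p = 5.0e-04), with an interaction adjusted p of 0.0014.

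Solyc01g090610.2.1 was a gene of S. lycopersicum root, at 116 and 253 RPKM in shade and sun, with 0 reads in both S. pennellii root libraries and 3 reads in the other 10 S. pennellii libraries. Its interaction was −7.16 on the log2 scale (adjusted p = 1.6e-06). Solyc01g104100.2.1 was at 6.64 and 21.7 RPKM in S. lycopersicum root, above the 0 to 3.79 RPKM of the species' other tissues. In S. pennellii it was at 1.83 and 0.777 RPKM in root, below the 10.9 to 33.6 RPKM elsewhere. It rose by 2.91 ± 0.48 in S. lycopersicum root (SE; adjusted p = 2.3e-04) and fell by 3.01 ± 0.48 in S. pennellii root (SE; adjusted p = 1.3e-04).

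**Figure D4:**
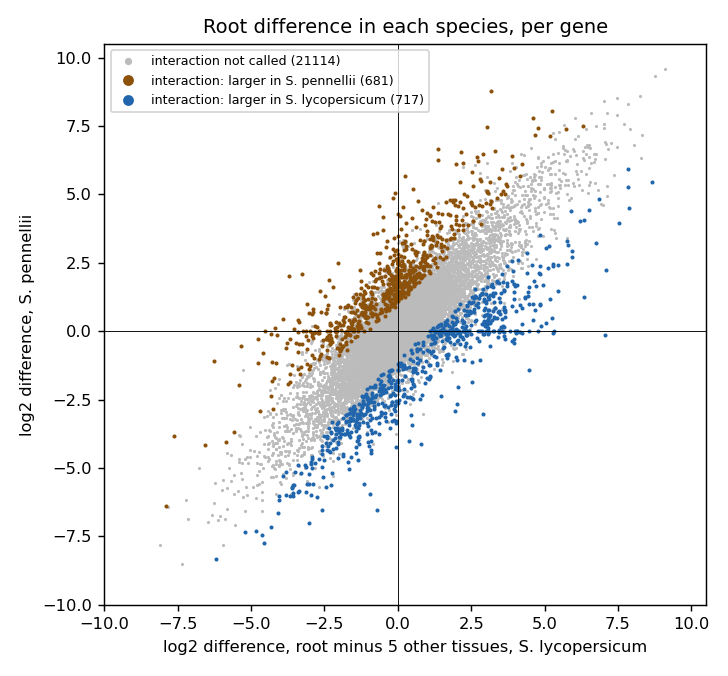
Log2 difference between root and the mean of 5 other tissues in S. pennellii (y) against S. lycopersicum (x), 1 point per gene tested (22512); brown and blue points are genes whose difference was larger (on the signed log2 scale) in S. pennellii (681) and in S. lycopersicum (717). The cloud follows the diagonal with r of 0.802, and the coloured points form its flanks.

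Root was also compared with each other tissue. The 5 comparisons share the 4 root libraries, so their values are set side by side only. Against leaf, 9851 genes were called (43.8%), 7125 higher (31.6%) and 2726 lower (12.1%) in root. Against vegetative meristem, 8738 were called (38.8%), 5369 higher (23.8%) and 3369 lower (15%). Against inflorescence, 7523 were called (33.4%), 3676 higher (16.3%) and 3847 lower (17.1%). Against seedling, 6678 were called (29.7%), 3911 higher (17.4%) and 2767 lower (12.3%), and against stem, 5677 were called (25.2%), 3469 higher (15.4%) and 2208 lower (9.81%). The excess of higher calls depended on the scaling. Against leaf, 72.3% of calls were higher on the deposited values, where the median of all genes was 0.55 higher in root, and 50.3% with median-ratio scaling or 51.8% with quantile normalization. For vegetative meristem the 3 shares were 61.4%, 47.4% and 50.6%, for seedling 58.6%, 46.0% and 48.0%, for stem 61.1%, 53.6% and 47.8%, and for inflorescence 48.9%, 51.2% and 48.4%.

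**Figure D5:**
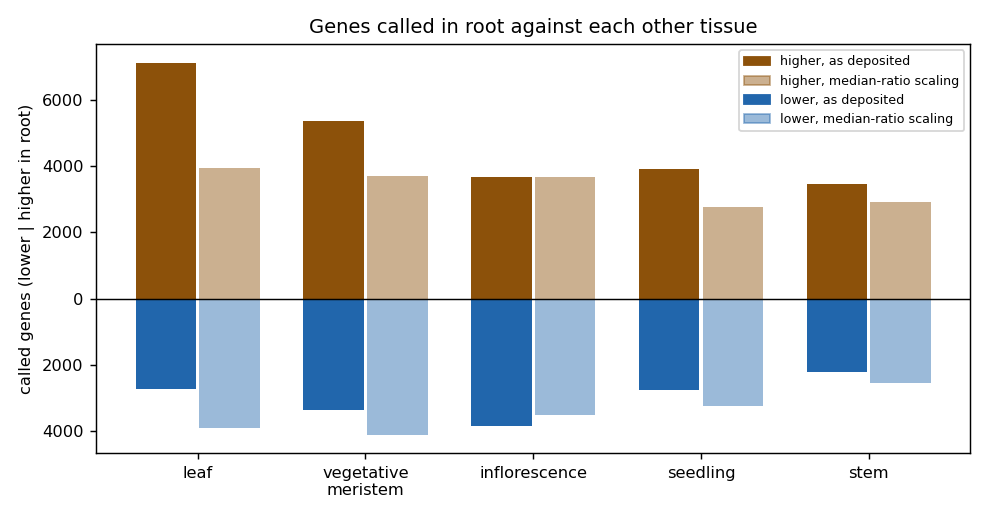
Number of genes called higher (upward bars) and lower (downward bars) in root against each other tissue, on RPKM as deposited (dark) and with median-ratio scaling (pale). On deposited values, higher calls run from 3469 against stem to 7125 against leaf; with median-ratio scaling those are 2921 and 3954.

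Against leaf, Solyc02g078100.2.1 was at 398, 432, 483 and 435 RPKM in the 4 root libraries, with 1 read in the 4 leaf libraries and at most 11.4 RPKM in any other tissue. Its log2 difference from leaf was 8.65 ± 0.45 (SE; adjusted p = 8.0e-10). Solyc12g098780.1.1 varied more within root, from 264 RPKM in S. lycopersicum sun to 1927 RPKM in S. lycopersicum shade, against 0 to 2.61 RPKM in leaf. Lower than in leaf were Solyc06g072350.2.1, at most 1.46 RPKM in root and 425 to 2212 RPKM in leaf, and Solyc12g013710.1.1, at 2.34 to 12.8 RPKM in root and 1163 to 3425 RPKM in leaf.

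Against stem, Solyc00g075440.1.1, which its ID places on no numbered chromosome, was at 439 and 1029 RPKM in S. pennellii root shade and sun and at 3772 and 360 RPKM in S. lycopersicum, against 0 to 1.94 RPKM in stem. Solyc04g014290.1.1 was at 329 to 796 RPKM in root with 1 read in the 4 stem libraries. Genes lower than in stem included Solyc08g067030.2.1, at 2.14 to 10.4 RPKM in root and 631 to 4759 RPKM in stem. Solyc05g015880.2.1 was highest in stem, at 175 to 248 RPKM, was at 4.38 to 75.3 RPKM in the other 4 tissues and had 2 reads in the 4 root libraries.

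Against seedling, the higher genes given here had large differences, but genes already named above were left out. Solyc03g093060.1.1 was at 92.7 to 556 RPKM in root and 0 to 7.51 RPKM in seedling. Solyc12g098790.1.1 was at 154 to 884 RPKM in root and 0 to 3.37 RPKM in seedling. Solyc12g094640.1.1 fell by 8.70 ± 0.37 on the log2 scale (SE; adjusted p = 3.9e-10), from 1199 to 2718 RPKM in seedling to 0.337 to 7.89 RPKM in root. Solyc06g069790.2.1, the gene with 0 reads in root described above, was at 198 to 377 RPKM in seedling and at least 354-fold lower in root.

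Against inflorescence, Solyc04g014350.1.1 was at 281 to 903 RPKM in root with 0 reads in the 4 inflorescence libraries, which is at least 427-fold higher against a floor of 3 reads over those libraries. Solyc03g079880.2.1 was at 646 to 1240 RPKM in root and at most 8.66 RPKM in inflorescence, although stem reached 507 RPKM. Solyc12g011010.1.1 and Solyc08g074620.1.1 were at most 1.36 and 2.78 RPKM in root, against 747 to 1456 and 506 to 2309 RPKM in inflorescence.

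Against vegetative meristem, Solyc09g005500.2.1 was at 267 to 732 RPKM in root and had 0 reads in the 4 meristem libraries, at least 1029-fold higher against a floor of 3 reads over those libraries. Solyc04g071100.1.1 was at 356 to 3232 RPKM in root and 0.643 to 9.30 RPKM in meristem, and stem reached 383 RPKM, above the lowest root library. Solyc03g123410.1.1 was at 1.62 to 3.18 RPKM in root against 722 to 2065 RPKM in meristem, and stem was as low as root, at 0.857 to 4.21 RPKM. Solyc08g007040.2.1 was at no more than 4.18 RPKM in root and at 559 to 1007 RPKM in meristem.

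Several of the leading root genes had neighbouring IDs. Tested genes were ordered by the numbers in their IDs, and a run was a series of neighbours all called higher in root. On the numbered chromosomes, 1798 of 3953 higher genes (45.5%) had a neighbour that was also called higher, in 735 runs of 2 or more, and 29 runs held 5 or more genes. Over all 22324 genes tested there, 31.7% had a neighbour called higher, and of those not called higher themselves 28.7% did. A run of 5 on chromosome 4, from Solyc04g014270.2.1 to Solyc04g014350.1.1, included 3 genes named above. Its members had mean RPKM in root of 58.0 to 2373 against 0.441 to 15.7 elsewhere, and all 5 were called higher in both species. A run of 4 on chromosome 12, from Solyc12g098760.1.1 to Solyc12g098800.1.1, also held 3 genes named above, with mean RPKM of 364 to 934 in root and 0.969 to 10.2 elsewhere. All 4 were called higher in both species. Near-identical neighbours may share reads, so levels within a run are uncertain.

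The longest run, chosen after its values were seen, held 9 genes on chromosome 12, from Solyc12g045020.1.1 to Solyc12g049180.1.1. Its log2 differences were 1.74 to 5.09, and all 9 genes were called higher in both species. Its first and last ID numbers lie much further apart than those of the runs described above. Neighbours were taken among tested genes only. Runs of lower genes were fewer, 408 of 2 or more genes and 2 of 5 or more, from a shorter list; 34.0% of lower genes had a neighbour called lower, against 22.4% of all genes tested there. Taken by whole chromosome, higher genes were 16.9% of those tested on chromosome 1 and 18.9% on chromosome 6, with the other 10 numbered chromosomes between. Lower genes ran from 10.8% on chromosome 6 to 13.8% on chromosome 10. The median length of the gene model, implied by the RPKM values, was 944 bases for higher genes, 924 for lower and 951 for all genes tested.

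Few genes were called for a light response that differed between root and the other tissues. The test, averaged over species, called 4 of 22512 genes (0.0178%), 1 relatively higher in root shade (0.00444%) and 3 relatively lower (0.0133%). An unadjusted p under 0.05 in this limma test was reached by 1328 genes (5.90%), near the share that the threshold passes with no effect. The spread in this test holds light responses that differ between the other tissues. The low counts therefore do not show that root responded to light as other tissues did. All 4 called genes had low counts. Solyc09g061630.1.1 was at 1.95 and 2.73 RPKM in the shade root libraries of S. pennellii and S. lycopersicum and at 0 in both sun root libraries, from 2 reads in all. Solyc08g044500.1.1 was at 0 in both shade root libraries and at 2.66 and 4.79 RPKM in sun, from 4 reads. Solyc04g009780.1.1 was also at 0 in both shade root libraries, with 3.02 and 5.43 RPKM in sun from 16 reads. Solyc01g005890.1.1 was at 4.29 RPKM in shade and 19.1 RPKM in sun in S. pennellii, and at 0 and 4.37 RPKM in S. lycopersicum. With voom on whole reads, and with genes under an RPKM of 5 left out, 0 genes were called. The count was 238 without S. pennellii root shade and 240 without S. pennellii root sun, where the term rests on the S. lycopersicum pair alone, and 0 without either S. lycopersicum root library.

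Within a species each light treatment of root had 1 library, so shade and sun were compared without a test. In S. pennellii root, 2398 genes (10.7%) differed by 1 or more on the log2 scale, 1236 higher in shade and 1162 higher in sun, and the median difference was 0. In S. lycopersicum root, 4112 genes (18.3%) did, 894 higher in shade and 3218 higher in sun, with a median of −0.15. The S. lycopersicum root sun library held 3941839 reads and the shade library 1796972, and the part of this depth gap in the excess was not tested. The other 10 pairs of libraries, 1 per species and tissue, had 6.001% to 22.2% of genes past that size.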

How the data were processed

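The authors deposited 1 table of RPKM for 28298 gene models in 52 libraries. Per the submitters' processing notes, CASAVA 1.4 and BWA 0.5.7 were used. The reference and the rule for counting reads were not given in the sources used here. RPKM values were whole multiples of 1 read (100% of values above 0, tolerance 0.02 reads), which gave reads, library totals and gene lengths. This recovery was tested on 2 simulated tables, where it returned 99.9992% and 99.9996% of values and every library total. A total whose reads came out nearly all even, as in S. lycopersicum root shade, was divided by 2, after which 51.7% to 53.4% of the values above 0 in each of the 52 libraries were odd. This step was added after doubled totals had been seen in the deposited table and in an earlier simulated table. The 2 simulated tables are therefore not an independent test of it. Depths, voom, floors and the reads quoted rest on the recovery of reads, and the main tests do not.

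Tests used limma 3.58.1 in R 4.3.3 on log2(RPKM + 1), a scale that understates changes of low genes, for 22512 genes that reached an RPKM of 1 in at least 2 of the 24 factorial libraries. The model held a mean per species and tissue and a light term per species (10 residual degrees of freedom; 9 with a term for light in root), with a trended, robust prior and p-values adjusted by Benjamini-Hochberg over these genes. The scripts were tested on simulated data. Exact permutation tests used scipy 1.17.1 in Python 3.11.15. A group at 0 got a floor of 3 reads over the group.

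Genes named had the 2 largest absolute log2 differences per direction and comparison among called genes with no overlap between groups and a mean of 5 RPKM or more where higher, leaving out genes already named; for light, the 2 smallest p per direction, and the third lower gene because only 4 were called. For the interaction, non-overlap was of root minus the mean of the other tissues, per species and light. The comparison and these rules were chosen with earlier results of these data known. Alternatives were a pseudocount of 0.1, no filter, a filter at RPKM of 5, median-ratio and quantile scaling, voom on whole reads, an additive model, no light term, and each library left out. Marker lists by gene name were not used, since the IDs carry no names.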

Additional observations from a re-analysis of the deposited data

Results flagged for a closer look

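Solyc02g091920.2.1 had 1 root library apart from the other 3. S. pennellii root shade was at 0.898 RPKM and the other 3 root libraries were at 0, so the gap divided by the range of log2(RPKM + 1) was 1, above Dixon's critical value for 4 samples. The value in that library rests on 2 reads. With the other 3 libraries at 0 the ratio is 1 whatever that value is, so the flag carries no weight. This was 1 of 36 groups tested. Chance marks about 1 in 20 only where values are continuous, which does not hold for groups with many zeros.

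The root difference differed between species, by the test of the difference itself, for 1398 genes. The 4 named among them had differences of 5.46 (Solyc02g067190.2.1, adjusted p = 9.1e-06), 5.38 (Solyc02g065240.2.1, adjusted p = 0.0014), −7.16 (Solyc01g090610.2.1, adjusted p = 1.6e-06) and −5.92 (Solyc01g104100.2.1, adjusted p = 1.2e-04) on the log2 scale, S. pennellii minus S. lycopersicum, each in both light treatments.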

How the results depend on the processing

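The total counts for root against the mean of 5 tissues, overall and within each species, and against each tissue stayed within 1.5 times the count reported under every alternative run, leave-one-out fits included. Higher and lower counts alone moved further: with median-ratio scaling higher calls fell from 7125 to 3954 against leaf and from 4786 to 3065 in S. pennellii, and without S. lycopersicum root shade the lower calls of S. lycopersicum fell from 2495 to 1626. The interaction gave 931 genes with a pseudocount of 0.1 and 618 to 1663 with 1 library left out. The light term in root gave 8 genes with a pseudocount of 0.1, 29 with no filter, 0 with the stricter filter, 0 with voom on whole reads, and 0 to 240 with 1 library left out; 2 of the 4 genes called had 4 or fewer reads in all. The excess of detected genes in root was 829.1 at an RPKM of 5 (exact permutation p = 0.0704) and 654.4 to 982.4 with 1 root library left out. The difference in the share of RPKM was −7.92 percentage points for the 1000 highest genes (exact permutation p = 0.0544) and, for the 100 highest, −14.0 to −11.7 with 1 root library left out. The cause of these changes was not tested. Of 1256 values for 40 named genes under the alternatives, 1198 kept their direction and call. The 58 that lost the call all belonged to the 4 genes of the light term, and none reversed. The other 36 genes were chosen from these same data for large called differences without overlap. Their keeping the call was largely fixed by that choice and does not bear on the genes not named. At an implied length of 919.5 bases, the median, genes near an RPKM of 1 rest on few reads. The labels give no replicate numbers and each combination has 1 library, so libraries could not be paired by plant. Root and the other tissues share species and light, which the fitted model holds and the permutation tests did not use. Without the light term 6657 genes were called against the mean of 5 tissues.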
